A study of Mus musculus with 43 samples.

Results

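Glypicans and syndecans carry most of the heparan sulfate found on the surface of animal cells. Of the 52636 genes in each of the deposited expression tables, 8 of these families were followed by their symbols: 4 glypicans (Gpc1, Gpc3, Gpc4 and Gpc6) and the 4 syndecans (Sdc1, Sdc2, Sdc3 and Sdc4). Values of Gpc2 and Gpc5 are given beside them, which makes 10 family genes in all. Gpc1 rose in colon organoids treated with the multi-kinase inhibitor regorafenib, while in colon fibroblasts at the same dose its value was lower than vehicle in 4 of 4 lines, without passing the test. Sdc3 was counted at 12 to 44 CP20M (reads per 20000000) in 6 vehicle organoid libraries and at 218 to 437 CP20M in 12 regorafenib libraries, and it reached the filter on low values in the regorafenib libraries alone. In fibroblasts at 10 µM, Sdc4 fell while Sdc1 and Gpc4 rose.

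Glypicans are held on the outer leaflet of the membrane by a glycosylphosphatidylinositol anchor, whereas syndecans span the membrane and have a short cytoplasmic tail with a PDZ-binding end. Their heparan sulfate chains bind Wnt, Hedgehog, FGF and TGF-β family ligands and matrix proteins, and can present a ligand to its receptor or hold it away from it. In the intestine, Sdc1 is the abundant syndecan of the epithelium, and stromal cells are known to use a broader set of members.

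Bulk RNA sequencing was performed on 43 libraries of cultured mouse cells, 24 of colon organoids and 19 of colon fibroblasts, from mice aged 2 months. Colonoids (lines M41, M40 and M1) carried Vil-cre/ERT2 with wild-type Apc, and tumoroids (lines F11, M3 and M14) carried Vil-cre/ERT2 with floxed Apc on both alleles. All of these mice had received tamoxifen, which activates a Cre driven by the villin promoter of the gut epithelium, and each organoid line came from 1 mouse. The paper lists F11 as female and the other organoid lines as male, so sex was not balanced between the genotypes. Organoids spent 6 days in vehicle (DMSO, at 0.5%), in regorafenib at 4 or 8 µM, or in the antimetabolite 5-FU at 1 µM, which gave 8 groups of 3 libraries with every line in each treatment. Wild-type C57BL/6 fibroblasts (lines M3, M3(2), M1(2) and M11) spent 7 days in vehicle, in regorafenib at 4 µM, in the autophagy inhibitor autogramin-2 at 1 µM, or in both, with 4 libraries each, and a 10 µM regorafenib group holds 3 libraries, since M11 has none there. The fibroblast lines were not matched to the organoid lines, and each of them came from 1 mouse.

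Values are in CP20M, reads of a gene per 20000000 reads counted in the library, so that 20 CP20M is 1 CPM. They are not divided by transcript length. Depth ranged from 512600 to 22366275 reads per organoid library and from 7949978 to 12825926 per fibroblast library, as recovered from the values, and the lowest was the colonoid line M41 at 4 µM. A single read in that library is worth 39.0 CP20M, so its Sdc2 value of 79 CP20M stands for 2 reads and its Sdc3 value of 274 CP20M for 7. The summed level of 6 epithelial markers was 65872 to 171243 CP20M in the organoids and 3 to 96 CP20M in the fibroblasts. The summed level of 6 fibroblast markers was 4 to 119 CP20M in the organoids and 104950 to 174709 CP20M in the fibroblasts, with Pdgfra, Col1a2 and Lum under 20 CP20M in every organoid library. The targeted gene does not check the genotype labels at this level of detail, since Apc was counted at 1990 to 4189 CP20M in vehicle colonoids and at 4932 to 5211 CP20M in vehicle tumoroids (log2 difference 0.68, adjusted p = 0.400).

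The members lie apart in the genome (GRCm38, GENCODE M21 annotation). Gpc1 occupies chr1:92831645-92860779 on the plus strand, Gpc6 chr14:116925315-117976544 on the plus strand, and Gpc3 (chrX:52272426-52613950) and Gpc4 (chrX:52053021-52165252) are neighbours on the minus strand of the X chromosome. Sdc1 lies at chr12:8771323-8793715, Sdc2 at chr15:32920723-33034935 and Sdc3 at chr4:130792537-130826319, all on the plus strand, and Sdc4 at chr2:164424247-164443887 on the minus strand. The last exon bases of Gpc1 are shared over 977 bases with exons of Ankmy1 on the opposite strand, and Sdc3 shares 415 exon bases with the antisense gene Gm26716. Because the strand setting of the counting is not given in the sources used here, reads in these stretches cannot be told apart.

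The promoters of 4 members that differ in level or response are printed here, because Sdc1 and Sdc4 were the abundant members of the organoids, Sdc3 and Sdc1 rose there, and Gpc4 and Sdc4 moved in opposite directions in fibroblasts. Each run holds the 250 bases before the RefSeq start of the gene (GRCm38.p6), read 5′ to 3′ on the gene's strand, with capitals on every GC box, GGGCGG on either strand, the motif bound by Sp1-type factors. Sdc1 is chr12:8771146-8771395 (plus), Sdc3 is chr4:130792287-130792536 (plus), Gpc4 is chrX:52164924-52165173 (minus) and Sdc4 is chr2:164443189-164443438 (minus). The RefSeq starts differ from the GENCODE bounds given above. By those bounds the Gpc4 and Sdc4 windows lie inside the gene, the Sdc1 window runs past its start, and only the Sdc3 window lies wholly before the gene.
Sdc1: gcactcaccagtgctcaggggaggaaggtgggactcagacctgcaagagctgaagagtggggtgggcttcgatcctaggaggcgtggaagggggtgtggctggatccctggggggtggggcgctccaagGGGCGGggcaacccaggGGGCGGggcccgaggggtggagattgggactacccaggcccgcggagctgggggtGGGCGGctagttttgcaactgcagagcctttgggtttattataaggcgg
Sdc3: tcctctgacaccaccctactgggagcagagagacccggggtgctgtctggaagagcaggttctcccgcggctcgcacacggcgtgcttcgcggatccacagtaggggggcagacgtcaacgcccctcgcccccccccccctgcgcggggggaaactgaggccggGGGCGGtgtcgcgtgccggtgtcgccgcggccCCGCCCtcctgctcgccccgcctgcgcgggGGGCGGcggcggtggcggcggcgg
Gpc4: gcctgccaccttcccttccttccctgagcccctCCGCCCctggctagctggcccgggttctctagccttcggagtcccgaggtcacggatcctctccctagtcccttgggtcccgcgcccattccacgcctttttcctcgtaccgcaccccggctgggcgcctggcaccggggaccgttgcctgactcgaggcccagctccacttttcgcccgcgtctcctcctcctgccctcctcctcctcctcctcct
Sdc4: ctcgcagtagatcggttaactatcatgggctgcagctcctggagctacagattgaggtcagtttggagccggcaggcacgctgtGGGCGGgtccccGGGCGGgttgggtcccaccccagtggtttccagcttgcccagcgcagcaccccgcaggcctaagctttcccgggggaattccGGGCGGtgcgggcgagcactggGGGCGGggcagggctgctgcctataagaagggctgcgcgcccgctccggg

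The 4 windows hold 3 GC boxes in Sdc1, 3 in Sdc3, 1 in Gpc4 and 4 in Sdc4, and 32.7% of 32851 promoters of the same length hold at least 1. Their GC content was 66% in Sdc1, 76.4% in Sdc3, 68.4% in Gpc4 and 68% in Sdc4, against a median of 52.4% over all promoters. None of the 4 holds an AP-1 motif (TGANTCA) or an E-box (CACGTG) on either strand, which are present in 6.75% and 6.02% of all promoters, and no capital overlaps another motif searched. Sdc3, nearly uncounted in untreated organoids, and Sdc1, which had the highest mean there, thus hold the same number of GC boxes. The table of promoters held no entry for Gpc1, Gpc6 and Sdc2.

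To compare levels between genes, values were divided by the exon length of each gene (CP20M per kb of exon). In vehicle colonoids, Sdc1 stood at 3898 ± 92.5 CP20M per kb and Sdc4 at 3800 ± 120 (SD, n = 3), and the libraries of both overlapped. Gpc4 followed at 338 ± 76.5, Gpc1 at 165 ± 34.2, Sdc2 at 29.5 ± 3.97 and Sdc3 at 5.12 ± 0.92 CP20M per kb, none of these overlapping its neighbour in the order. Gpc2, Gpc6, Gpc3 and Gpc5 each had a mean under the Sdc3 mean, with overlapping libraries. The order in vehicle tumoroids began the same way, with Sdc1 at 3703 ± 854 and Sdc4 at 3261 ± 481 CP20M per kb (SD, n = 3). Gpc4 at 375 ± 41.8 and Gpc1 at 319 ± 66.2 CP20M per kb overlapped in tumoroids, and Sdc2 stood at 85.6 ± 19.3. The untreated epithelium thus counted 2 syndecans above every glypican.

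Vehicle fibroblasts had another order. Gpc4 led at 3394 ± 607 CP20M per kb, followed by Gpc1 at 2725 ± 2752, Sdc4 at 1196 ± 250 and Sdc3 at 1030 ± 288 (SD, n = 4), each overlapping the next. The wide spread of Gpc1 came from line M11, as described further on. Sdc2 at 565 ± 102, Gpc6 at 531 ± 123 and Sdc1 at 338 ± 83.2 CP20M per kb overlapped one another. Gpc3, the gene of Simpson-Golabi-Behmel overgrowth, was counted at 0 to 10 CP20M in the organoids and 2 to 105 CP20M in the fibroblasts, and Gpc6 at 0 to 42 CP20M in the organoids. Gpc2 reached at most 177 CP20M in organoids and 199 in fibroblasts, and Gpc5 at most 40 and 9 CP20M.

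**Figure D1:**
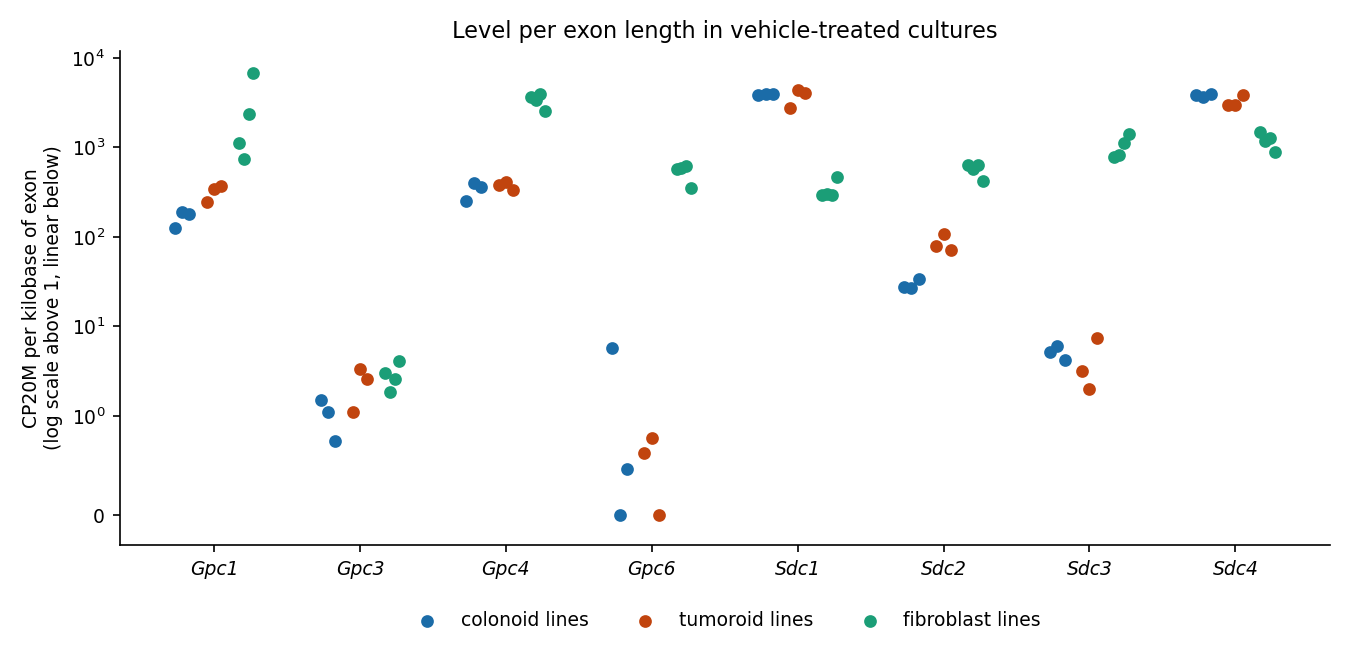
Level of each member in vehicle libraries, in CP20M per kb of exon on an axis that is logarithmic above 1 and linear below, with 1 point per library of colonoids (n = 3), tumoroids (n = 3) and fibroblasts (n = 4). Sdc1 and Sdc4 stand highest in both kinds of organoid, Gpc4 has the highest mean in fibroblasts, and Gpc1 in fibroblasts spreads widely because of line M11.

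Of the summed level of the 8 members per kb, the glypicans made up 7.6% ± 1.85 in vehicle organoids (SD, n = 6, range 4.81% to 9.79%). With regorafenib this share was 12.6% ± 2.49 (SD, n = 12, range 9.39% to 16.8%), and with 5-FU it was 9.61% ± 2.28 (SD, n = 6). Over the 19 fibroblast libraries the glypicans made up 69.6% ± 4.7 of the sum, between 61.6% and 77.3%. Each library was scaled on its own, the fibroblast and organoid values come from separate tables, and the ranges are given side by side without a test. The summed level itself was 7995 ± 788 CP20M per kb in vehicle organoids and 11533 ± 1375 with regorafenib.

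The first comparison asked how the members respond to regorafenib in the epithelium. The 12 regorafenib libraries (4 and 8 µM, both genotypes) were set against the 6 vehicle libraries with limma, and a gene was called when its FDR was under 0.001 and it changed by at least 1.5-fold. Gpc1 and Sdc1 were called higher, against 4.97% of the 11320 genes tested. Sdc3 also met the thresholds, but it passed the filter on low values only through its regorafenib libraries (all 12 at 200 CP20M or more, and none of the vehicle or 5-FU libraries), so its tests are given from the fit without the filter. Gpc3 and Gpc6 were under the filter. The 5 other tested members had log2 fold changes of 0.04 (Sdc4) to 1.65 (Gpc1), where the median of all tested genes was −0.10. In bulk RNA, fewer cells of a type and less RNA per cell cannot be told apart. Among the 6 epithelial markers, the intestinal factor Cdx2 fell by 1.89 on the log2 scale in the same comparison (adjusted p = 0.000292). The sum of the 6 in colonoids was 119080 to 148381 CP20M at vehicle, 112076 to 169843 at 4 µM and 102244 to 139276 at 8 µM. In tumoroids it was 72105 to 94275, 85336 to 101091 and 65872 to 87158 CP20M, in the same order. The part of these markers in the members' values was not tested.

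Gpc1, a glypican that binds FGF and TGF-β ligands, had vehicle values of 650, 974 and 934 CP20M in the colonoid lines M41, M40 and M1, and of 1260, 1776 and 1906 CP20M in the tumoroid lines F11, M3 and M14. At 4 µM it stood at 3239, 2383 and 2885 CP20M in the same colonoid lines and at 2938, 3722 and 4404 CP20M in the tumoroid lines. At 8 µM the values were 5129, 5220 and 3509 CP20M in colonoids and 2790, 4877 and 4945 CP20M in tumoroids. Every treated library was above every vehicle library, also across the genotypes. The fitted change was 1.65 on the log2 scale (SE 0.16, fold 3.14, adjusted p = 9.05e-06). Ankmy1, whose exons overlap the end of Gpc1, was counted at 92 to 257 CP20M with vehicle and 40 to 752 CP20M with regorafenib (log2 1.23, adjusted p = 0.0114). The part of the shared reads in the Gpc1 values was not tested.

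Gpc4, which has been described as a carrier of Wnt ligands, had vehicle values of 671, 1063 and 958 CP20M in colonoids M41, M40 and M1 and of 1018, 1092 and 874 CP20M in tumoroids F11, M3 and M14. With 4 µM it was counted at 1132, 1741 and 1791 CP20M in these colonoids and 1845, 1632 and 2085 CP20M in these tumoroids. With 8 µM it was counted at 3515, 2293 and 1620 CP20M in colonoids and 1118, 1885 and 2072 CP20M in tumoroids. Values were higher than vehicle in 6 of 6 lines at both doses, and M41 at 8 µM stood highest. Its change of 0.94 on the log2 scale (SE 0.18, fold 1.92) did not pass the FDR of 0.001 (adjusted p = 0.00130). It was called with edgeR, with DESeq2, with TMM scaling and without the shallow M41 library.

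Sdc3, the syndecan best known from neurons, had vehicle values of 31, 36 and 25 CP20M in colonoids and 19, 12 and 44 CP20M in tumoroids, in the line order used above. At 4 µM it reached 274, 283 and 316 CP20M in colonoids and 379, 225 and 437 CP20M in tumoroids. At 8 µM it reached 421, 222 and 225 CP20M in colonoids and 218, 277 and 408 CP20M in tumoroids. The lowest treated library (218 CP20M) lay well above the highest vehicle library (44 CP20M). The fitted change was 2.77 on the log2(CP20M + 20) scale (SE 0.21, fold 6.82), which understates the ratio for a gene this low, and its adjusted p in the fit without the filter was 4.23e-06. Its antisense neighbour Gm26716, whose shared reads cannot be told apart, was counted at 4 to 11 CP20M in colonoids and 1 to 10 CP20M in tumoroids with vehicle. At 4 and 8 µM its medians were 34 and 46 CP20M in colonoids and 65 and 53 CP20M in tumoroids, with a highest value of 77 CP20M. The part of the shared reads in the Sdc3 values was not tested.

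Sdc1, the main epithelial syndecan and a co-receptor for growth factors and integrins, had vehicle values of 14473, 15173 and 14892 CP20M in colonoids and 10444, 16655 and 15216 CP20M in tumoroids. With 4 µM it rose to 22396, 24358 and 24624 CP20M in colonoids and 21942, 21717 and 23908 CP20M in tumoroids. With 8 µM it stood at 29742, 28814 and 25207 CP20M in colonoids and 18740, 22870 and 21672 CP20M in tumoroids. No treated library overlapped the vehicle libraries. The fitted change was smaller than that of Gpc1 and had a smaller error, 0.72 on the log2 scale (SE 0.10, fold 1.65, adjusted p = 0.000152). This call was lost, with adjusted p-values of 0.00194, 0.00259, 0.00112 and 0.00257, when line M1, M40, M3 or M14 was left out, and in the fit without the filter (adjusted p = 0.00103), and over the alternatives run its adjusted p was between 3.05e-11 and 0.00259.

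Sdc2, a syndecan more often linked with mesenchymal cells, had vehicle values of 98, 94 and 120 CP20M in colonoids and 278, 379 and 249 CP20M in tumoroids. With 4 µM it stood at 79, 213 and 258 CP20M in colonoids and 499, 511 and 478 CP20M in tumoroids, and the first of these is the value that rests on 2 reads. With 8 µM it was counted at 436, 318 and 371 CP20M in colonoids and 509, 629 and 586 CP20M in tumoroids. All treated libraries but that shallow one were above vehicle of the same line. The change of 0.96 (log2, SE 0.18, adjusted p = 0.00149) stayed short of the FDR of 0.001. Without the shallow library it was 1.08 and passed (adjusted p = 7.24e-06, with 1.03e-13 to 0.0208 over the alternatives).

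Sdc4, the syndecan of focal adhesions, was the exception among the abundant members. It had vehicle values of 7585, 9536.5 and 9961 CP20M (lowest, median and highest of 6) and regorafenib values of 6443, 9271 and 11156 CP20M (of 12). Both sets overlapped almost fully. Its log2 fold change was 0.04 (SE 0.09), with a 95% interval of −0.15 to 0.23, and the adjusted p was 0.777. Sdc1 and Sdc4, which had overlapping levels per kb in vehicle organoids, thus gave different values under the drug, although the difference between these genes was not itself tested.

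**Figure D2:**
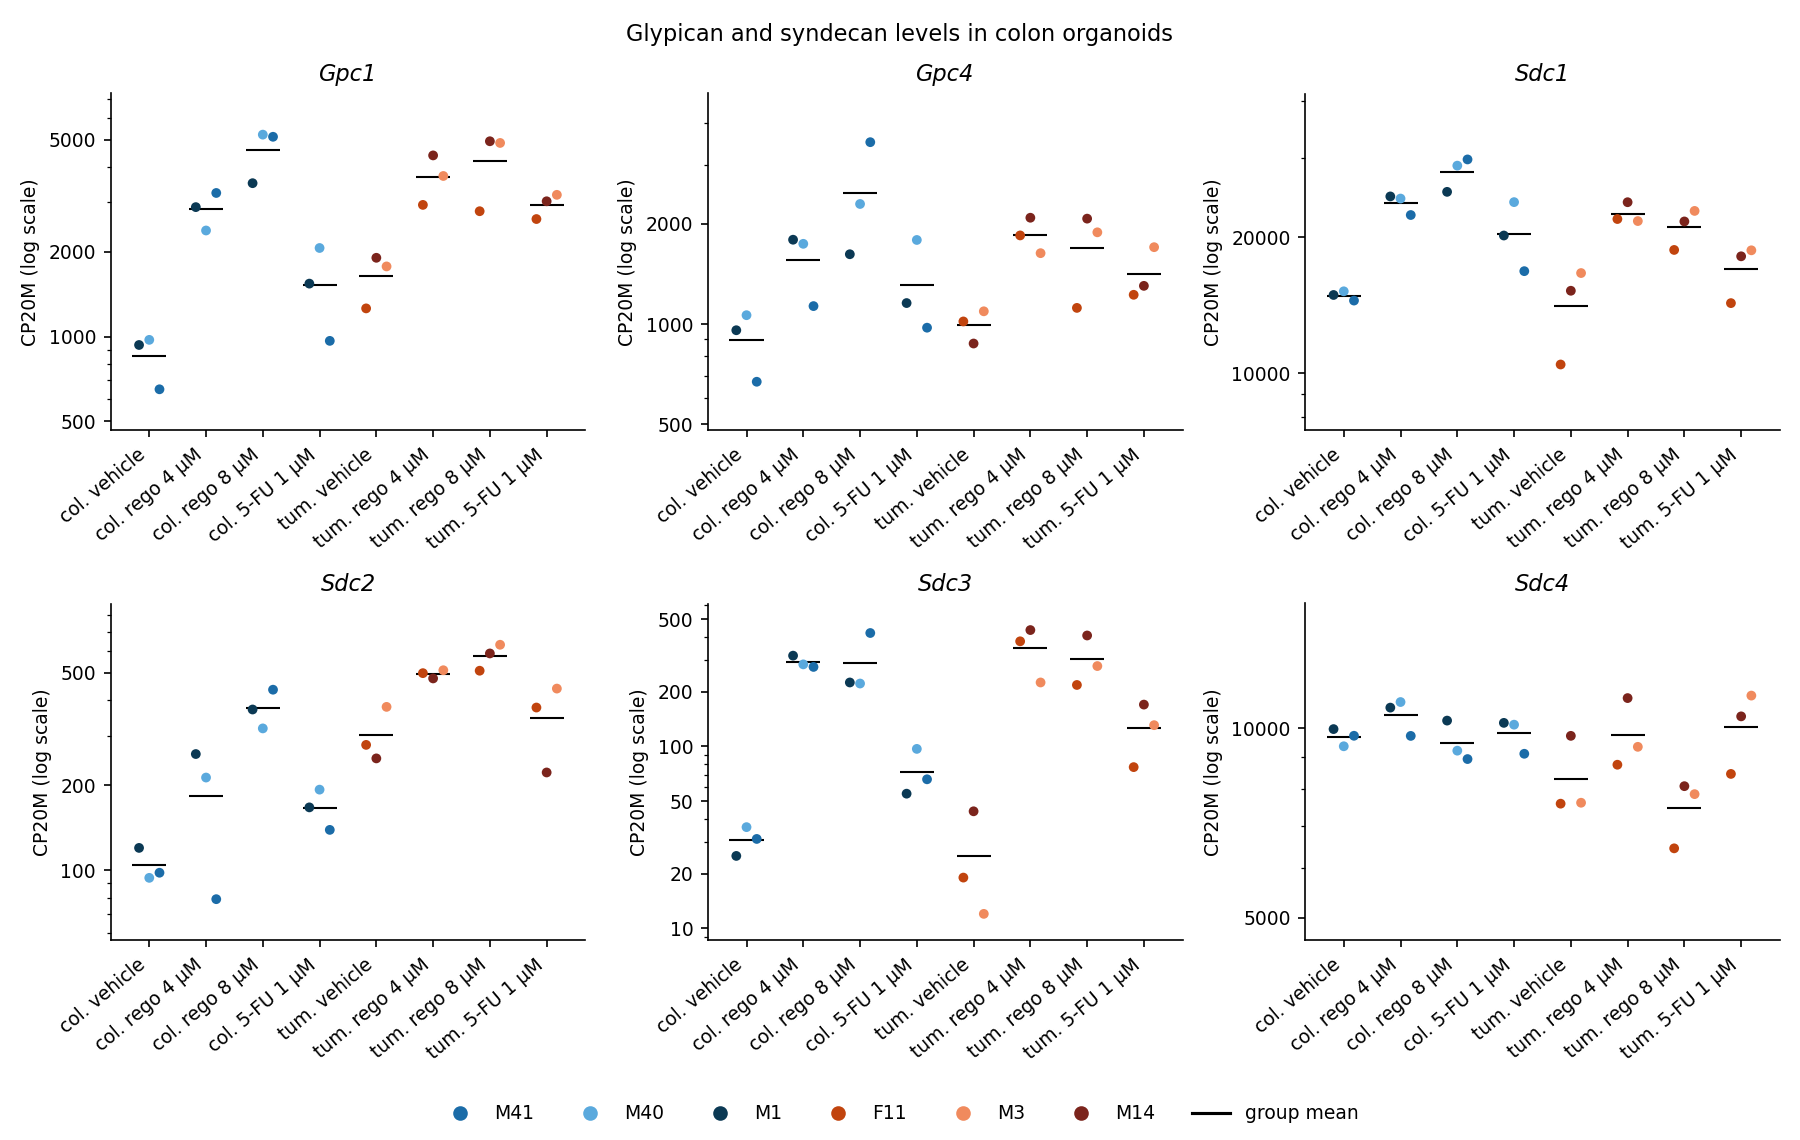
Values of Gpc1, Gpc4, Sdc1, Sdc2, Sdc3 and Sdc4 in all 24 organoid libraries, in CP20M on log axes, by treatment and genotype, with 1 point per library coloured by culture line and a bar at each group mean. Gpc1, Sdc1 and Sdc3 stand above vehicle in each line at 4 and 8 µM, Sdc4 stays between 6443 and 11258 CP20M throughout, and Sdc2 in M41 at 4 µM (79 CP20M) is the value that rests on 2 reads.

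Within colonoids, where 1.46% of the tested genes were called and 268 rather than 165 with the line as a block, Gpc1 (log2 2.06, SE 0.22, adjusted p = 0.000123) was called higher, and Sdc3 changed by 2.59 on the log2 scale (SE 0.30), with an adjusted p of 0.000239 in the fit without the filter. The log2 values of Sdc1 (0.79, adjusted p = 0.00221), Gpc4 (1.09, adjusted p = 0.00944) and Sdc2 (1.13, adjusted p = 0.00985) were not called, each past the fold but not the FDR. TMM scaling moved the median log2 change of all genes in colonoids by 0.10 and the called genes from 87 higher and 78 lower to 143 and 76. It kept the call of Gpc1. The call of Gpc1 in colonoids was lost when any 1 of the 3 colonoid lines was left out (adjusted p of at most 0.00291). It was also lost with the groups of the comparison alone (0.00364). With the filter, Sdc3 no longer met the FDR in the same settings (adjusted p of at most 0.00442, and 0.00375 with the groups alone). Within tumoroids, where 0.203% of the tested genes were called (23, and 95 with the line as a block), no member that reached the filter at vehicle was called, and Sdc3 changed by 2.95 (SE 0.30), with an adjusted p of 0.000386 in the fit without the filter. With the filter, Sdc3 no longer met the FDR without M40, F11, M3 or M14 (adjusted p of at most 0.00778). Gpc1 was not called in tumoroids, with 1.24 on the log2 scale (SE 0.22, adjusted p = 0.00471). Its paired ratios, 4 µM over vehicle of the same line, were 2.10 to 2.33 in tumoroids and 2.45 to 4.98 in colonoids.

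Whether the genotypes responded differently was tested with an interaction term. No member passed an FDR of 0.05 by limma, edgeR or DESeq2, against 0.00883% of all genes by limma. The median log2 difference of all genes was 0.10 by limma, which edgeR moved by −0.13. By limma, Gpc1 alone had an unadjusted p under 0.05 (2 members by edgeR and 2 by DESeq2), and its response was smaller in tumoroids by −0.83 on the log2 scale (SE 0.32, 95% interval −1.50 to −0.15, adjusted p = 0.9998). At vehicle, Gpc1 was higher in tumoroids by 0.93 (SE 0.26, adjusted p = 0.0889) in the fit, and its 3 tumoroid values (1260 to 1906 CP20M) lay above the 3 colonoid values (650 to 974 CP20M). The treated libraries of both genotypes overlapped at 4 and at 8 µM.

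Tumoroids and colonoids were then compared at vehicle, to see what the loss of Apc goes with, at a threshold of 0.01 for the FDR and 1 for the log2 change. No member was called by limma, against 0.141% of all genes, while 2 members, Sdc2 and Gpc1, had an unadjusted p under 0.05. Of the genes called, 2 were higher and 14 lower in tumoroids by limma, and 87 and 149 by DESeq2. Sdc2 was called by both edgeR and DESeq2. It stood at 94 to 120 CP20M in vehicle colonoids and at 249 to 379 CP20M in vehicle tumoroids, groups that do not overlap. The limma difference was 1.36 on the log2 scale (SE 0.30, fold 2.57, adjusted p = 0.0370), and without the shallow M41 library at 4 µM, which enters the shared estimate of the spread, its adjusted p was 0.00141 (5.28e-07 to 0.339 over the alternatives). Sdc1, Sdc3, Sdc4 and Gpc4 differed by −0.23 to 0.17 between the genotypes, all with 95% intervals that include 0.

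Between the doses, 8 µM against 4 µM over both genotypes, no member was called by limma, edgeR or DESeq2, against 0.451% of all genes by limma (51, and 201 with the line as a block). Of these, 21 were higher and 30 lower, and with TMM scaling 29 and 67, and the median log2 difference of all genes was 0.11, which edgeR moved by −0.12. By limma, Sdc2, Gpc1 and Sdc4 had unadjusted p-values under 0.05 (2 members by edgeR and 2 by DESeq2). Sdc2 was higher at 8 µM by 0.64 (SE 0.21, adjusted p = 0.192), and without the shallow library the paired ratio was above 1 in the 5 other lines as well, between 1.02 and 1.49. Gpc1 was higher by 0.42 (SE 0.18, adjusted p = 0.295), with every colonoid line higher at 8 µM and tumoroids in 2 of 3 lines. Sdc4 was lower at 8 µM in 6 of 6 lines, by −0.27 (SE 0.11, adjusted p = 0.250). Beside these values, Cd68, 1 of 5 macrophage markers, was counted at 211 to 2659 CP20M in 8 µM libraries and 40 to 464 CP20M in 4 µM libraries (log2 2.47, adjusted p = 0.0391), while Ptprc and Lyz2 were under 20 CP20M in every organoid library. The part of Cd68 in these values was not tested.

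The antimetabolite 5-FU was compared with vehicle at an FDR of 0.05 and the same fold of 1.5, with the same vehicle libraries as above. Gpc1 was called higher, against 2.35% of 11562 tested genes (272, and 584 with the line as a block). Sdc3 also met the thresholds, but it passed the filter through its regorafenib libraries alone, which are not part of this comparison. Its adjusted p is therefore given from the fit without the filter. Sdc3 stood at 66, 97 and 55 CP20M in colonoids M41, M40 and M1 and at 77, 131 and 170 CP20M in tumoroids F11, M3 and M14, above each vehicle library and below each regorafenib library. Its log2 fold change was 1.28 (SE 0.24), with an adjusted p of 0.0176 in the fit without the filter. Gpc1 stood at 966, 2065 and 1543 CP20M in these colonoids and 2617, 3190 and 3026 CP20M in these tumoroids, and was higher than vehicle of the same line in 6 of 6 lines (log2 0.81, SE 0.19, adjusted p = 0.0271). The libraries of colonoids with 5-FU and vehicle overlapped for Gpc1 and those of tumoroids did not.

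The other tested members had smaller values with 5-FU. Gpc4 differed by 0.50 (SE 0.20, adjusted p = 0.221) and Sdc1 by 0.36 (SE 0.12, adjusted p = 0.113), both higher in 6 of 6 lines. Sdc2 differed by 0.37 (95% interval −0.08 to 0.82) and Sdc4 by 0.15 (95% interval −0.07 to 0.36). The Gpc1 call was lost in the fit without the filter (adjusted p = 0.0630) and without M40, M1, M3 or M14 (adjusted p of at most 0.184). With the filter, Sdc3 no longer met the FDR without M1 or M3 (adjusted p of 0.0927 and 0.112). Since regorafenib and 5-FU were compared with the same vehicle libraries, their folds are given here side by side only, and the drugs were not tested against each other.

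Fibroblasts were treated to see how the stroma responds at the same dose of regorafenib and with autophagy inhibited. At 4 µM, no member passed the FDR of 0.05 and the fold of 1.5 by limma, edgeR or DESeq2, against 1.02% of 11032 tested genes (113, and 796 with the line as a block). By limma, 2 members, Sdc4 and Gpc4, had an unadjusted p under 0.05, and the 7 tested members had a median log2 fold change of 0.10. Sdc4 had vehicle values of 3780, 2960, 3199 and 2244 CP20M in lines M3, M3(2), M1(2) and M11, and values of 2502, 1985, 2274 and 1576 CP20M at 4 µM. The ratios of the lines lay close together, with the 4 µM value at 0.66 to 0.71 of vehicle. Its fitted change was −0.54 (log2, SE 0.17, adjusted p = 0.154), and with the line as a block the adjusted p was 7.25e-05 at the same size (7.25e-05 to 0.579 over the alternatives), which stays under the fold required.

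At 10 µM, Sdc4 fell and Sdc1 and Gpc4 rose past both thresholds, against 7.33% of all genes called in this comparison (809, and 1519 with the line as a block). Sdc4 stood at 1828, 1937 and 1773 CP20M in M3, M3(2) and M1(2), all below every vehicle library (log2 −0.69, SE 0.19, adjusted p = 0.0205). These were 0.48 to 0.65 of vehicle of the same line, and the log2 fold change with the line as a block was −0.81. The direction is the same in each line and the size is larger within lines than between group means, and the line with the lowest vehicle value, M11, has no 10 µM library.

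Sdc1 had vehicle values of 1114, 1148, 1125 and 1762 CP20M in M3, M3(2), M1(2) and M11, and values of 1588, 1470, 1404 and 1891 CP20M at 4 µM. At 10 µM it stood at 1935, 2503 and 1737 CP20M in the first 3 lines, that is 1.54 to 2.18 times vehicle of the same line. The vehicle value of M11 lies within the range at 10 µM, so the groups overlap. The log2 fold change at 10 µM was 0.68 (SE 0.18, adjusted p = 0.0167), and 0.78 with the line as a block.

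Gpc4 had vehicle values of 9756, 8954, 10504 and 6779 CP20M and values of 16371, 11663, 12655 and 9693 CP20M at 4 µM, in the same order of lines. At 10 µM it stood at 16425, 14634 and 13175 CP20M, all above every vehicle library. Its fitted change was 0.72 (log2, SE 0.19, adjusted p = 0.0176) at 10 µM and 0.48 (SE 0.18, adjusted p = 0.214) at 4 µM. With the line as a block, the change of Gpc4 at 10 µM was smaller, 0.61, since M11, its lowest line at vehicle, has no 10 µM library. The calls of Sdc4, Sdc1 and Gpc4 at 10 µM were all lost when M3, M3(2) or M1(2) was left out, with adjusted p-values up to 0.194, 0.297 and 0.174, and all kept without M11. That of Sdc1 was also lost with the groups of the comparison alone (adjusted p = 0.0625).

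**Figure D3:**
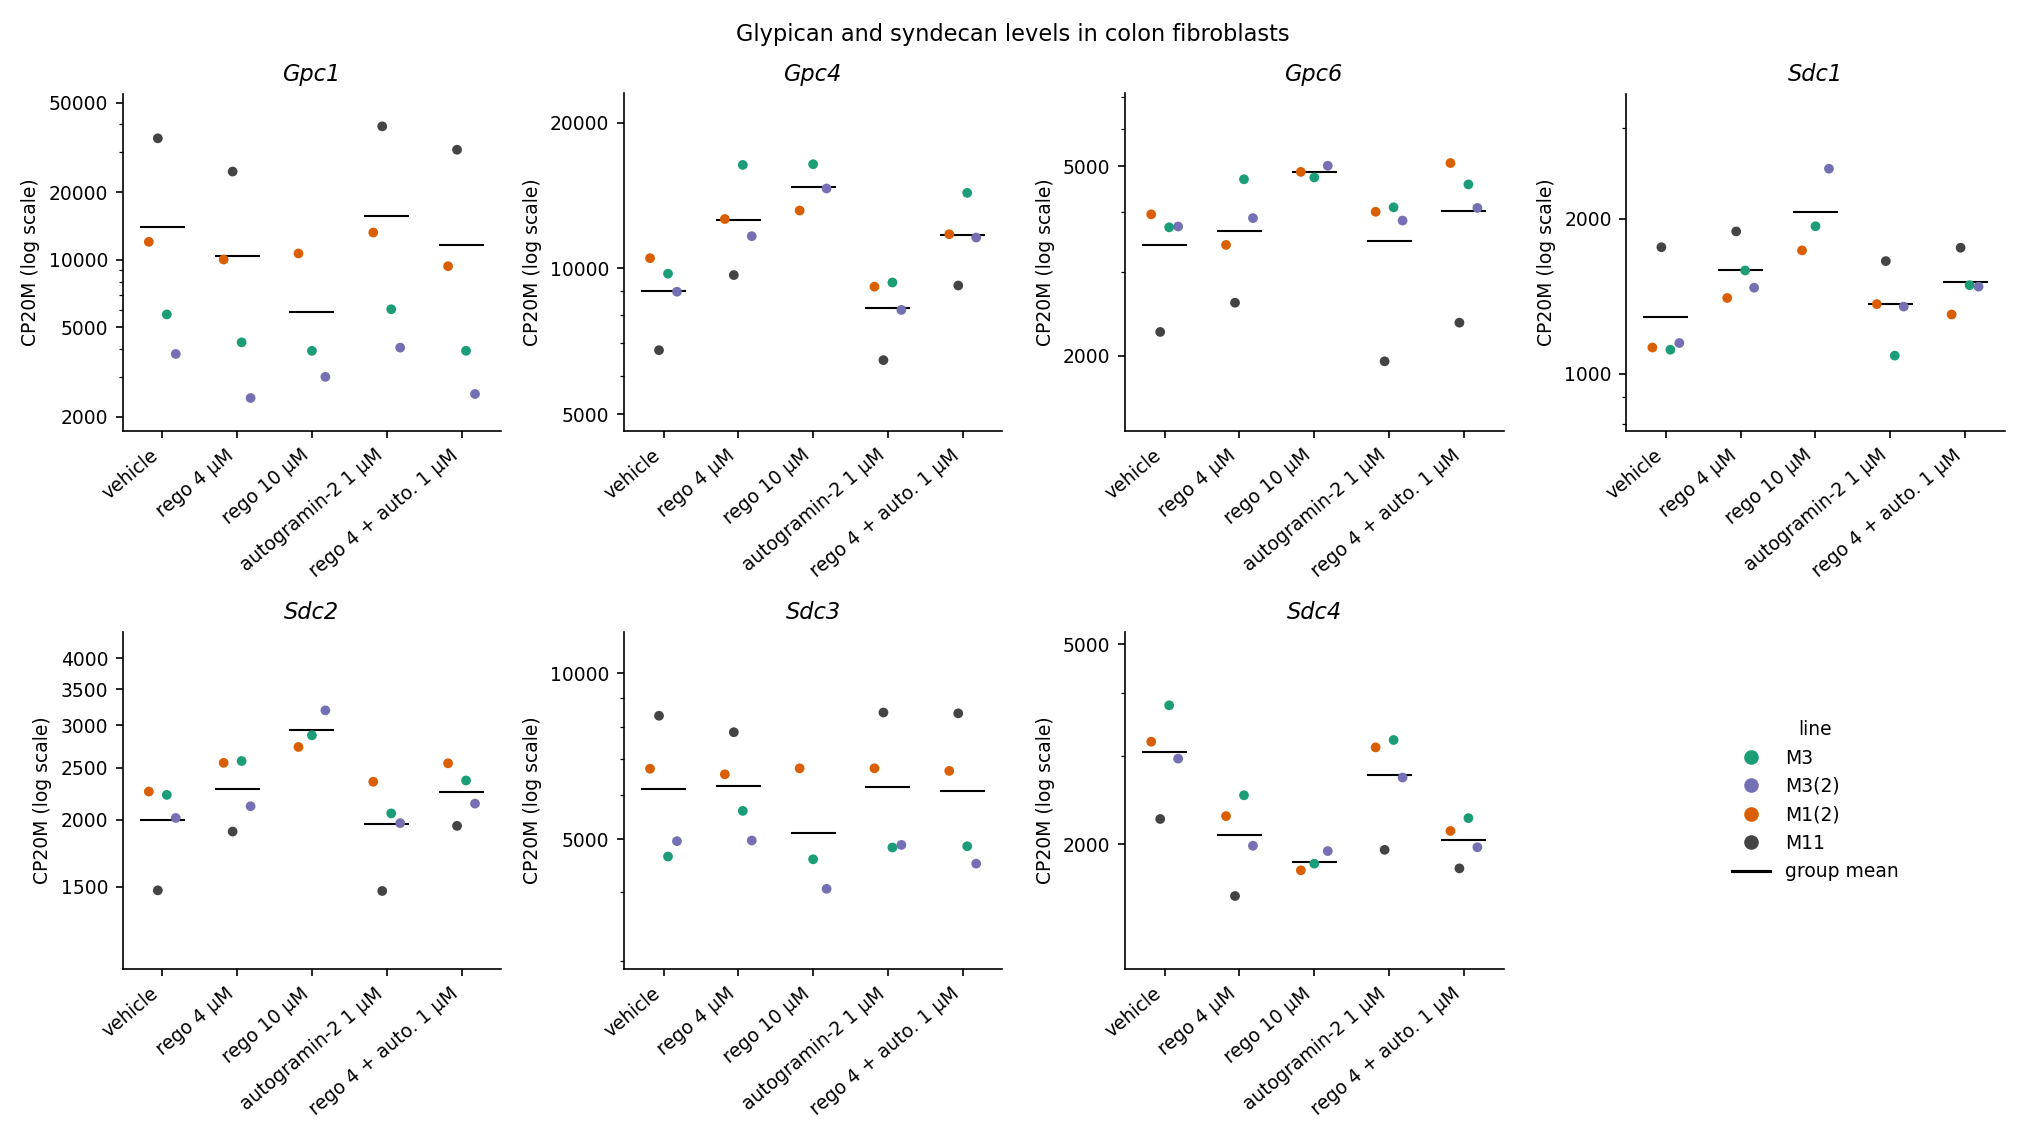
Values of Gpc1, Gpc4, Gpc6, Sdc1, Sdc2, Sdc3 and Sdc4 in the 19 fibroblast libraries, in CP20M on log axes, by treatment, with 1 point per library coloured by culture line and a bar at each group mean. Sdc4 is lower than vehicle in each line with regorafenib, with or without autogramin-2, Sdc1 and Gpc4 are higher in each line at 10 µM, and Gpc1 of line M11 (24678 to 39208 CP20M) stands above the other lines.

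Gpc1 differed more between fibroblast lines than between treatments. It had vehicle values of 5714, 3812, 12016 and 34692 CP20M in M3, M3(2), M1(2) and M11, and values of 4293, 2428, 10028 and 24678 CP20M at 4 µM. At 10 µM it stood at 3934, 3015 and 10666 CP20M in the first 3 lines. The value was lower than vehicle of the same line in 4 of 4 lines at 4 µM (0.64 to 0.83 of vehicle) and in 3 of 3 lines at 10 µM (0.69 to 0.89 of vehicle), while the groups overlapped because of the spread between lines. The log2 fold change at 4 µM was −0.45 (SE 0.92, adjusted p = 0.893), and with the line as a block its adjusted p was 0.000468 (0.000468 to 0.986 over the alternatives), again under the fold required. At 10 µM the value was −0.96 (SE 1.00, adjusted p = 0.603), and −0.33 with the line as a block, since M11, the line with the highest values, is missing from that group. Ankmy1, whose exons overlap the end of Gpc1, was counted at 373 to 3232 CP20M in vehicle fibroblasts. It stood at 266 to 2555 CP20M at 4 µM and 259 to 1063 CP20M at 10 µM. The part of the shared reads in these Gpc1 values was not tested.

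Sdc2 had vehicle values of 2224, 2014, 2256 and 1476 CP20M and 10 µM values of 2872, 3197 and 2732 CP20M, with no overlap. Its log2 fold change of 0.57 (SE 0.17, adjusted p = 0.0298) was past the FDR and just under the fold required, and it was called by edgeR and DESeq2. With the line as a block, the change of Sdc2 was 0.47, farther under the fold. M11, its lowest line at vehicle, has no 10 µM library. Gpc6, a glypican of skeletal growth, had vehicle values of 3720, 3735, 3961 and 2242 CP20M and 10 µM values of 4735, 5012 and 4865 CP20M. It was higher in 3 of 3 lines and not called (log2 0.54, SE 0.29, adjusted p = 0.247), with a change of 0.33 with the line as a block. Sdc3 stood between 4648 and 8371 CP20M with vehicle and between 4061 and 6720 CP20M at 10 µM, with a log2 fold change of −0.26 (95% interval −0.83 to 0.31), and its antisense neighbour Gm26716 was counted at 513 to 1190 CP20M in fibroblasts. Gpc3 was under the filter, with 8, 5, 7 and 11 CP20M at vehicle and 2, 47, 28 and 105 CP20M at 4 µM in M3, M3(2), M1(2) and M11.

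Markers of other cells moved in the same libraries. The smooth muscle gene Myh11 was higher by 1.86 at 4 µM (adjusted p = 0.00854) and by 1.87 at 10 µM (adjusted p = 0.00298), and the summed level of 3 smooth muscle markers was 2438 to 7355 CP20M at vehicle and 11012 to 14961 CP20M at 10 µM. The fibroblast receptor gene Pdgfra fell by 2.51 at 4 µM (adjusted p = 0.0459) and by 3.03 at 10 µM (adjusted p = 0.00550), while the summed level of the 6 fibroblast markers at 10 µM, 123827 to 131036 CP20M, lay within the vehicle range of 115130 to 163436 CP20M. The macrophage gene Lyz2 was counted at 674 to 4214 CP20M at vehicle and 217 to 268 CP20M at 10 µM. The summed level of 3 endothelial markers reached 7043 CP20M at vehicle and 20026 CP20M at 4 µM. That of 3 glial markers was 581 to 11069 CP20M at vehicle and 810 to 11369 CP20M at 4 µM. At 10 µM, where M11 has no library, the glial sum was 850 to 4328 CP20M. The part of these cells in the members' values was not tested.

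With autogramin-2 alone, no member and no other gene (0%) was called by limma, edgeR or DESeq2, with or without the line as a block, and no member had an unadjusted p under 0.05 by limma. The members' log2 fold changes lay between −0.15 (Sdc4) and 0.12 (Gpc1), and the 95% interval of Sdc4 was −0.52 to 0.22. Within lines, Gpc1 was higher in 4 of 4 (1.05 to 1.13 of vehicle), and Sdc4 and Gpc4 were lower in 4 of 4.

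With 4 µM regorafenib and autogramin-2 together, no member was called by limma, edgeR or DESeq2, against 1.66% of all genes by limma (183, and 771 with the line as a block), and 2 members, Sdc4 and Gpc4, had an unadjusted p under 0.05. Sdc4 stood at 2253, 1971, 2124 and 1789 CP20M in M3, M3(2), M1(2) and M11, lower than vehicle in 4 of 4 lines (log2 −0.56, SE 0.17, adjusted p = 0.0966). Without line M11 this was −0.64 and passed (adjusted p = 0.00407, with 4.75e-05 to 0.42 over the alternatives). Gpc4 stood at 14330, 11587, 11770 and 9222 CP20M (log2 0.38, SE 0.18, adjusted p = 0.271). Gpc1 was again lower in 4 of 4 lines, at 3937, 2530, 9361 and 30860 CP20M. All fibroblast treatments shared 1 set of vehicle libraries.

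Against 4 µM regorafenib alone, adding autogramin-2 gave no called member by limma, edgeR or DESeq2, and no member had an unadjusted p under 0.05 by limma, against 0.00906% of all genes called (1, and 158 with the line as a block). The differences of the 7 tested members lay between −0.09 (Gpc4) and 0.12 (Gpc6). That of Sdc4 was −0.02 with a 95% interval of −0.39 to 0.35, and that of Gpc1 was 0.04 with an interval of −1.92 to 2.00. Between 10 and 4 µM, no member was called by limma, edgeR or DESeq2, against 0.145% of all genes by limma (16, and 664 with the line as a block; 10 higher and 6 lower, and 53 and 148 by DESeq2), and by limma Sdc2 alone had an unadjusted p under 0.05 (log2 0.37, adjusted p = 0.388; 2 members by edgeR and 2 by DESeq2). Sdc1 was higher at 10 µM in 3 of 3 lines (log2 0.36, adjusted p = 0.430). Gpc1 had a difference of −0.50 (SE 1.00) between the doses, which was 0.13 with the line as a block and 0.09 without M11.

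**Figure D4:**
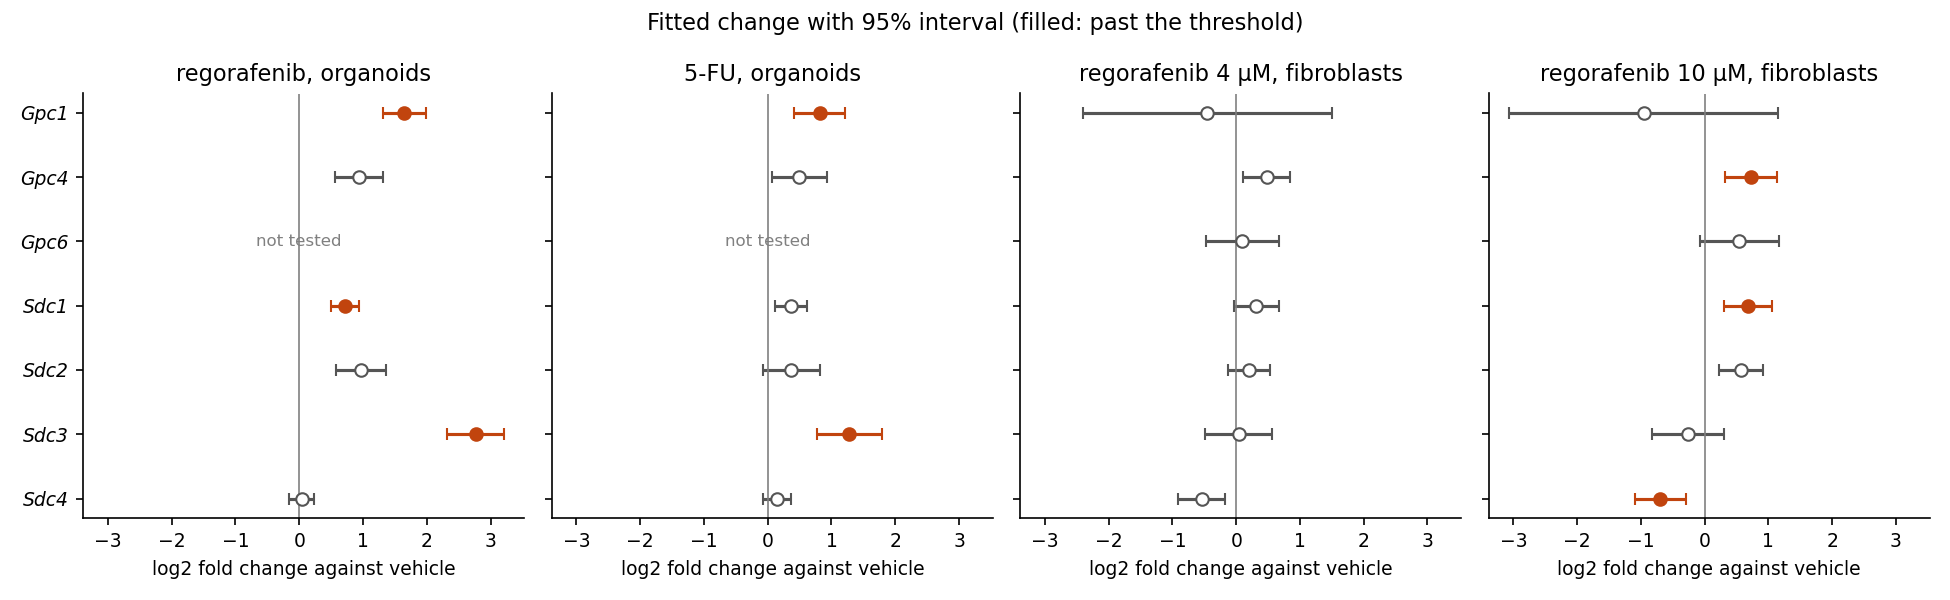
Fitted log2 fold changes of the tested members with 95% intervals on the log2(CP20M + 20) scale, in a panel each for regorafenib in organoids, 5-FU in organoids, and 4 and 10 µM regorafenib in fibroblasts, with filled points past the threshold. Sdc3 (2.77, past the filter through its regorafenib libraries alone) and Gpc1 (1.65) lie farthest above 0 with regorafenib in organoids, Sdc4 (−0.69) lies below 0 at 10 µM in fibroblasts, and the intervals of Gpc1 in fibroblasts are wide.

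Set side by side, the members gave unlike values in the epithelium and the stroma at 4 µM, the dose both had in common, although culture times were 6 and 7 days. Gpc1 was higher in 6 of 6 organoid lines, with a paired ratio of 2.10 to 4.98, and lower in 4 of 4 fibroblast lines. Sdc4 was lower in 4 of 4 fibroblast lines (0.66 to 0.71), higher in 3 of 3 tumoroid lines (1.15 to 1.23) and close to vehicle in colonoids (1.00 to 1.18). At 8 µM, Sdc4 was lower than vehicle in 2 of 3 tumoroid lines (0.83 to 1.03) and in 2 of 3 colonoid lines (0.92 to 1.03). At 4 µM, Gpc4 and Sdc1 were higher in every line of organoids and fibroblasts. Gpc4 was higher by 1.20 to 1.68 in fibroblasts and 1.49 to 2.39 in organoids, and Sdc1 by 1.07 to 1.43 in fibroblasts and 1.30 to 2.10 in organoids. Sdc3 gave 7.86 to 19.95 times vehicle in organoid lines and 0.93 to 1.21 in fibroblast lines. These differences between the tables were not tested.

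**Figure D5:**
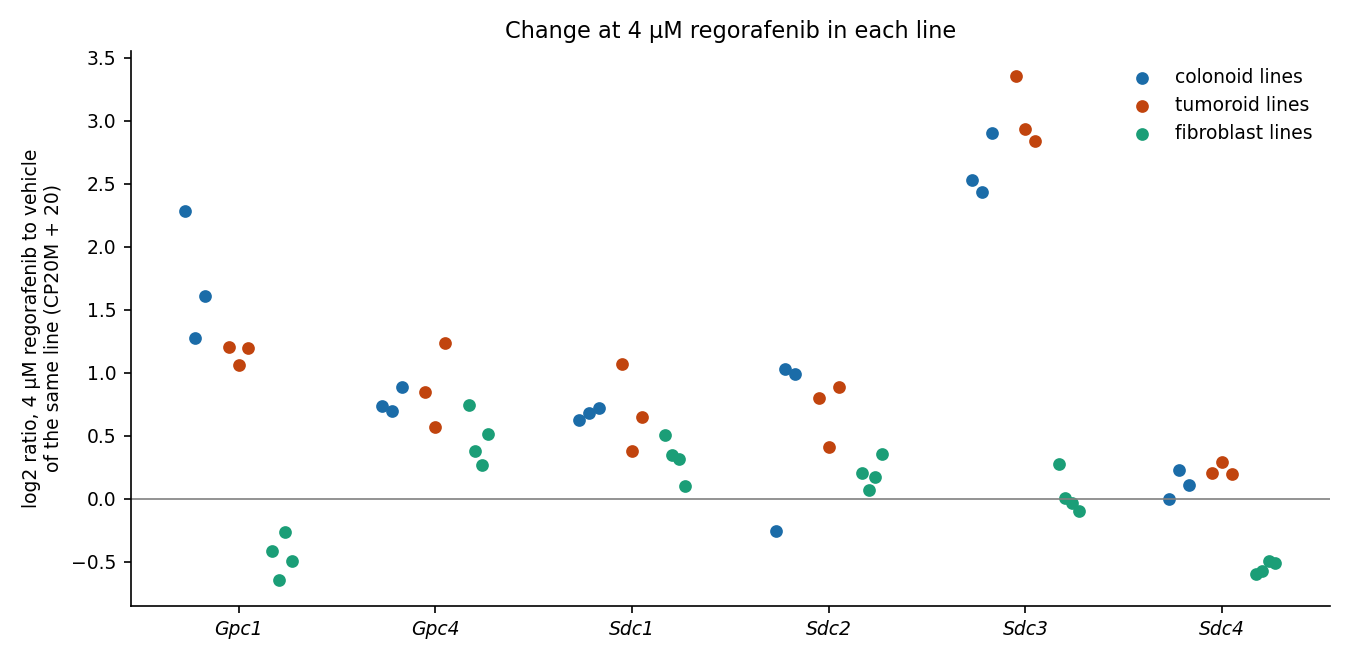
Log2 ratio of 4 µM regorafenib to vehicle of the same line for Gpc1, Gpc4, Sdc1, Sdc2, Sdc3 and Sdc4. Each point is 1 line of colonoids (3 lines), tumoroids (3 lines) or fibroblasts (4 lines), with 0 marked. All 6 organoid points of Gpc1 lie above 0 and all 4 fibroblast points below it, and the fibroblast points of Sdc4 lie together between −0.59 and −0.49.

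The chains on these core proteins are made and cut by other enzymes, which were followed in 5 lists of 66 genes. These were the synthesis of the sugar linker (9 genes), heparan sulfate synthesis (24), editing of chains and release of core proteins (14), matrix and part-time heparan sulfate proteoglycans (7) and cytoplasmic partners of the syndecans (12). With regorafenib in organoids, 1 of the 49 tested genes was called by limma, against 4.97% of all tested genes, and 21 had an unadjusted p under 0.05. edgeR called 4 of the lists and 886 of all genes, and DESeq2 10 and 1536. The called gene was B4galt7, which adds the first galactose of the linker (log2 0.80, SE 0.14, adjusted p = 0.000592). The median log2 fold changes were −0.13 for linker synthesis, 0.23 for heparan sulfate synthesis, −0.02 for editing, 0.62 for the matrix proteoglycans and −0.11 for the partners, where all tested genes had −0.10.

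Ext1, a subunit of the polymerase of the chain, had a log2 fold change of 0.99 with regorafenib in organoids (adjusted p = 0.00140), and Ndst1, which starts its sulfation, of 0.52 (adjusted p = 0.0411). Heparanase (Hpse), which cuts the chains, had −1.27 (adjusted p = 0.00540), and none of these 3 passed the FDR of 0.001. The sulfatase Sulf2 had 0.19 (adjusted p = 0.609) and Sdcbp, the PDZ protein that binds syndecan tails, −0.27 (adjusted p = 0.399). Hpse was tested in organoids only, Sulf1 in fibroblasts only, and Notum, which releases glypicans and deacylates Wnt, was under the filter in both. Between the genotypes, limma called no gene of the lists, against 0.141% of all genes, and 11 had an unadjusted p under 0.05. No gene of the lists was called by edgeR and 5 by DESeq2, which called 87 higher and 149 lower of all genes. Log2 differences by limma ran from −1.60 to 5.42 for editing and from 0.03 to 3.54 for the matrix proteoglycans. The lowest adjusted p-values there were 0.0336 and 0.0222, short of the FDR of 0.01. With 5-FU, limma called no gene of the lists, against 2.35% of all genes, and 8 had an unadjusted p under 0.05. edgeR called 1 of the lists (281 higher and 146 lower of all genes) and DESeq2 2 (418 and 171).

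In fibroblasts at 10 µM, limma, edgeR and DESeq2 each called 3 of the 49 tested genes of the lists, a share near the 7.33% of all genes called by limma and therefore no result about the lists. Hs6st2, a 6-O-sulfotransferase of heparan sulfate, rose by 1.48 (SE 0.42, adjusted p = 0.0279), from 1344 to 2790 CP20M at vehicle to 4596 to 7461 CP20M at 10 µM. Tgfbr3, or betaglycan, a part-time proteoglycan and TGF-β co-receptor, fell by 1.57 (adjusted p = 0.00251), from 1633 to 2472 CP20M to 527 to 897 CP20M. Tiam1, a Rac exchange factor that binds syndecan tails, fell by 0.83 (adjusted p = 0.0327). No gene of the lists was called by limma at 4 µM (8 with an unadjusted p under 0.05, 0 called by edgeR and 1 by DESeq2), with the combination (5, 0 and 1) or with autogramin-2 (0 in each). Of all genes, limma called 1.02% at 4 µM, 1.66% with the combination and 0% with autogramin-2. Sulf1 and Sulf2 at 10 µM had log2 fold changes of 0.22 and 0.56 (adjusted p of 0.737 and 0.320), and Sdcbp had −0.30 (adjusted p = 0.0256), under the fold required.

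For the members past the thresholds with regorafenib (Sdc3 included), the genes with the most similar profiles were listed by Pearson's r of log2(CP20M + 20). This is a description, since the libraries share lines and treatments. Over the 24 organoid libraries and 11562 genes, Sdc1 was closest to Itga5 (r = 0.959), the α5 subunit of the fibronectin receptor, then Dpysl3 (r = 0.946) and Tmeff1 (r = 0.929). Sdc3 was closest to Dbn1 (r = 0.945), which encodes the actin-binding protein drebrin, then Itm2c (r = 0.941) and Rora (r = 0.931), and Gpc1 to Tep1 (r = 0.927), Vangl2 (r = 0.924) and Mfge8 (r = 0.918). Over the 19 fibroblast libraries and 11032 genes, Gpc4 was closest to Hs6st2 (r = 0.970), the sulfotransferase named above, then Htr1b and D430036J16Rik (both r = 0.965). Sdc4 was closest to Golm1 (r = 0.960), Pkm (r = 0.955) and AC160637.1 (r = 0.955), and Sdc1 to Rbm38 (r = 0.948), Trim7 (r = 0.926) and Acox3 (r = 0.925). Among the members themselves, Gpc1 and Sdc3 had r = 0.84 in organoids and 0.95 in fibroblasts, and Sdc1 and Sdc4 had r = −0.80 in fibroblasts, again as descriptions.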

How the data were processed

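Bulk RNA was sequenced in 24 organoid and 19 fibroblast libraries. Per the labels and methods, the authors trimmed reads with Trimmomatic 0.36, aligned them to GRCm38 with STAR 2.5.3a and counted them with HTSeq 0.9.1 on Ensembl release 90. The deposited signal values (CP20M) are gene counts that the authors scaled to 20000000 per library and rounded up, without division by length. The strand setting of the counting was not given in the sources used here, and sources differ on the library kit. Rounding up adds less than 1 CP20M, and counting error is largest for low genes such as Sdc2 and Sdc3 in the shallow M41 library.

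Samples were grouped by genotype, treatment and line in the labels. The 3 tumoroid libraries with 5-FU carry the word colonoid in their titles and were placed by their genotype label. Whole reads were recovered from the step between values, and 99.6% to 100% of values were exact multiples after rounding up. Depth sets the counting error. Without the line as a block, p-values rest on the spread between libraries of a group, each from a different line. Libraries of the same line in different groups entered those fits as independent, although they were correlated. With the line as a block, p-values rest on the spread left after differences between lines are removed. No 2 libraries of a group were identical, with a chi-square per gene of 8.86 or more over 51 pairs.

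Values were tested as log2(CP20M + 20) with limma 3.58.1 (R 4.3.3, lmFit and eBayes with trend, 1 coefficient per group), for genes at 200 CP20M or more in at least 2 libraries, with Benjamini-Hochberg adjustment over all genes tested. Every adjusted p in the report is limma's unless another tool is named. Regorafenib in organoids was tested at an FDR of 0.001, genotype at 0.01 and the rest at 0.05, with a fold of 1.5 (2 for genotype, none for the interaction). edgeR 4.0.16 and DESeq2 1.42.0 on the recovered reads, TMM scaling, a pseudocount of 5, no filter, the groups of each comparison alone, leaving out each line or the shallow library, and the line as a block were alternatives. The fits and the recovery of reads were tested on simulated data.

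Lines pair the libraries, since those of 1 line come from the same animal. After subtraction of group means, same-line libraries had correlations of 0.012 to 0.885 (median 0.50, 36 pairs) in organoids and 0.339 to 0.946 (median 0.75, 36 pairs) in fibroblasts, against medians of −0.26 and −0.24 between lines. The members and gene lists were chosen with earlier results of these data known. All members are named, together with list genes past a threshold (up to 4 per list and comparison), Ext1, Ndst1, Sulf1, Sulf2, Hpse, Notum and Sdcbp, and the 3 genes most correlated with a called member. Promoters came from RefSeq, where 7 of the 10 family genes had an entry.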

Additional observations from a re-analysis of the deposited data

Results flagged for a closer look

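Line M11 stood apart from the other fibroblast lines in 3 of the 28 groups of members examined for a single distant library. Its Gpc6 value was 2242 CP20M with vehicle, where the other 3 lines held 3720 to 3961 CP20M, and 1945 CP20M with autogramin-2, where they held 3844 to 4098 CP20M. Its Sdc1 value with vehicle was 1762 CP20M, where the other lines held 1114 to 1148 CP20M. Chance flags about 1 in 20 such groups.

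At 4 µM regorafenib, every line moved one way and every fibroblast line the other for Gpc1 in colonoids and tumoroids and for Sdc4 in tumoroids. The mean log2 change of Gpc1 over lines was 2.17 higher in colonoids than in fibroblasts and 1.61 higher in tumoroids than in fibroblasts. For Sdc4 it was 0.77 higher in tumoroids than in fibroblasts. The opposite direction of Sdc4 was seen at 4 µM only. At 8 µM, Sdc4 was lower than vehicle in 2 of 3 tumoroid lines (0.83 to 1.03 of vehicle). These differences were not tested, because the tables were normalised separately.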

How the results depend on the processing

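Of 558 recomputed values of 44 member results, 495 kept their direction and side of the threshold, 35 lost a call, 26 gained one and 2 turned their direction. Both reversals were Gpc1 at 10 against 4 µM in fibroblasts, −0.50 as reported, 0.13 with the line as a replicate block, and −0.88 to 0.091 without 1 line each (0.091 without M11); the difference passed no threshold. The replicate block changed no other call of a member, and could not be used between genotypes, since no line has both. Called members with regorafenib in organoids numbered 3 (Sdc3 included), 2 without the filter on low values, and 5 with edgeR, DESeq2, TMM scaling or without the shallow library. In colonoids there were 2 (Sdc3 included), and 5 with DESeq2, 4 without the shallow library and 0 with the groups of the comparison alone. In tumoroids there was 1 (Sdc3), and 4 with DESeq2 and 0 with the groups alone. Between genotypes there were 0, and 1 with edgeR, DESeq2 or without the shallow library. With 5-FU there were 2 (Sdc3 included), and 1 without the filter or with the groups alone. Leaving out 1 line gave 2 to 4 called members for regorafenib in organoids, 0 to 2 in colonoids (0 without any 1 colonoid line), 0 to 1 in tumoroids (0 without M40, F11, M3 or M14), 0 to 1 between genotypes (1 without M41), 0 to 2 with 5-FU (0 without M1 or M3), 0 to 3 at 10 µM in fibroblasts (3 without M11) and 0 to 1 with the combination (1 without M11). Fewer lines leave fewer degrees of freedom; the cause of the other shifts was not tested. Counts over all genes moved more. For regorafenib in organoids 563 genes became 886 with edgeR, 1536 with DESeq2 and 1127 without the shallow library. In colonoids 165 became 1029 with DESeq2, 481 without that library, 99 without the filter and 1 with the groups alone, and in tumoroids 23 became 53, 625, 57, 171, 5 and 9 with edgeR, DESeq2, TMM, without the library, without the filter and with the groups alone. Between genotypes 16 became 27, 236, 30, 84, 7 and 0 with edgeR, DESeq2, TMM, without the library, with a pseudocount of 5 and with the groups alone. Between 8 and 4 µM 51 became 95, 318, 96, 130, 10 and 11 with edgeR, DESeq2, TMM, without the library, without the filter and with the groups alone, and with 5-FU 272 became 427 with edgeR, 589 with DESeq2, 493 without the library and 153 without the filter. In fibroblasts DESeq2 called 231 rather than 113 genes at 4 µM, 332 rather than 183 with the combination and 201 rather than 16 between doses, and the groups alone gave 42, 62 and 6. With the line as a replicate block, the counts were 268 (colonoids), 95 (tumoroids), 201 (8 against 4 µM), 584 (5-FU), 796, 1519 and 771 (4 µM, 10 µM and the combination in fibroblasts) and 664 (10 against 4 µM), where 10 µM had 809 as reported. The interaction had 1 gene and 0 to 4 under the alternatives, and the combination against 4 µM had 1 and 0 to 158. Without 1 line each, the counts were 155 to 642 (regorafenib in organoids), 1 to 65 (colonoids), 0 to 98 (tumoroids), 3 to 49 (genotypes), 0 to 35 (8 against 4 µM), 26 to 254 (5-FU), 28 to 317 (4 µM in fibroblasts), 358 to 1118 (10 µM), 32 to 359 (combination) and 0 to 45 (10 against 4 µM). Among the tested members, Sdc2 and Sdc3 rest on the fewest reads in the shallow library, 2 and 7.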
